A study of Homo sapiens with 95 samples.

Results

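NOTCH1, NOTCH2, NOTCH3, JAG1, JAG2, DLL1, HES1, HES4 and HEY1 are the receptors, ligands and target genes of the Notch pathway described here. They were chosen by gene symbol, and all 9 were listed among the 27978 genes of each of the 95 libraries. In Notch signalling a ligand of the Jagged or Delta-like family on the surface of a cell binds a receptor on its neighbour. The receptor is then cut by ADAM proteases and by the gamma-secretase complex, and its freed intracellular part joins the DNA-binding protein RBPJ to switch on repressor genes of the HES and HEY families. In airway epithelium this pathway is known for balancing secretory against ciliated cell fate as basal cells differentiate.

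The profiles are sparse full length (SFL) RNA-seq, a pooled method in which barcoded samples are sequenced together at a low number of reads per sample. The cells were AALE, an immortalized human bronchial epithelial line, in 8 genotypic lines crossed with 4 treatments. FAT1 and CDKN2A were CRISPR knockouts, and their control line (GFP) was transfected with the Cas9-EGFP plasmid without a guide. NRF2 (gene NFE2L2), FGFR1, NRG1 and PIK3CA were overexpressed, and their control line (HcRed) carried the reporter vector alone. Each line received cigarette smoke condensate (CSC) at 24 μg/ml, benzo(a)pyrene (BaP, a polycyclic hydrocarbon) at 173 μM, the tobacco nitrosamine NNK at 490 μM, or DMSO, the control treatment. Of the 32 combinations, 31 held 3 libraries and FGFR1 with CSC held 2. Each genotype was a single line, so genotype and line cannot be told apart. The study calls the replicates of a combination biological, but whether each was a separately grown culture is not given in the sources used here, and the p-values measure the spread between these libraries.

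Depth was between 287446 and 2116383 counted reads per library with a median of 934235. A floor of 3 reads, taken here as the limit for a count of 0, corresponded to between 1.42 and 10.4 CPM (reads scaled to a common library size). Of the 9 libraries under 500000 reads, 5 received BaP, 3 received NNK, 1 received CSC and 0 received DMSO. Every targeted gene, and CYP1A1 for each chemical, lay outside the range of its control. For example, FAT1 reads were between 66.5 and 129 CPM in the FAT1 line against 260 to 451 CPM in GFP, and CDKN2A between 35.1 and 66.8 CPM against 79.1 to 147 CPM. The label of bronchial epithelium was checked with marker lists. All 8 airway basal markers were expressed (summed level 4068 to 11970 CPM), while summed secretory markers reached at most 6.95 CPM, ciliated markers 22.1 CPM, endothelial markers 6.40 CPM and leukocyte markers 9.28 CPM. Of 6 fibroblast markers only COL1A1 had a mean of at least 10 reads, and the list summed to between 8.18 and 66.9 CPM.

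Compared per kilobase of exon (median RPKM over the 95 libraries), the ligand JAG2 stood at 16.1 and the receptor NOTCH2 at 15.4, followed by HES1 at 13.1, JAG1 at 12.3, NOTCH1 at 8.74 and NOTCH3 at 6.47. HES4 followed at 4.22, DLL1 at 2.92 and HEY1 at 0.267. The library ranges of all neighbours in this order overlapped. NOTCH3 ran from 1.05 to 17.3 RPKM, while NOTCH2 ran from 11.1 to 21.6. HES4 had a mean of 4.46 reads and HEY1 of 1.76 reads per library, and HEY1 was at 0 in 28 libraries, so that single libraries say little on these target genes. Part of NOTCH2 is nearly identical to NOTCH2NL, which was listed separately with a median of 36 reads against 244 for NOTCH2. The count of NOTCH2 could therefore depend on how reads from that part were handled.

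On GRCh37 the receptor genes lie on chromosome 9 (NOTCH1, from 139388885 to 139440500), chromosome 1 (NOTCH2, from 120454176 to 120643366) and chromosome 19 (NOTCH3, from 15269849 to 15311806), all on the minus strand. The ligand genes, also on the minus strand, lie on chromosome 20 (JAG1, from 10618332 to 10654647), chromosome 14 (JAG2, from 105607319 to 105635161) and chromosome 6 (DLL1, from 170591294 to 170615653). HES1 lies on the plus strand of chromosome 3 (from 193853937 to 193856521) and HES4 on the minus strand of chromosome 1 (from 934342 to 935552).

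The 150 bases before the start of HES1 and HES4 are shown because each holds the RBPJ recognition letters GTGGGAA, given in capitals. The sequences are RefSeq promoters on GRCh38.p14, printed in the direction of the gene, at chr3:194135998-194136147 on the plus strand and chr1:1000098-1000247 on the minus strand.
HES1: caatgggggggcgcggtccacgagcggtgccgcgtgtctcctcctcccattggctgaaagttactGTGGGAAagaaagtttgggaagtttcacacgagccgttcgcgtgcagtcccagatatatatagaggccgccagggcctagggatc
HES4: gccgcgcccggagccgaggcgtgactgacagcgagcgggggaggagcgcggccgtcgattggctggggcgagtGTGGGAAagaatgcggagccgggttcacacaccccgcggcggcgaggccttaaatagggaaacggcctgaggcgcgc
The first base of the motif stood at position -85 in HES1 and at -77 in HES4, counted from the transcription start. Promoters of 7 members were matched (250 bases before to 50 bases after the start), and both strands were searched. GTGGGAA was in 6.25% of all 35116 promoters and in none of those of NOTCH1, NOTCH2, NOTCH3, JAG1 and JAG2. GCGTG, the core bound by the aryl hydrocarbon receptor (AhR) that responds to BaP, was in 36.5% of all promoters. It stood at -119 and -46 in HES1 and at -132 in HES4, where no match overlapped the RBPJ letters, and it was present in every matched member except NOTCH2. TGACNNNGC, the antioxidant element bound by NRF2, was in 13.3% of all promoters and in none of the 7. A match is a description of letters and not of binding.

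The first question was which members differed between each chemical and DMSO over all lines. HES1, the Notch target with the most reads here, rose with each of the 3 chemicals, and so did the receptors NOTCH1 and NOTCH3. With a correction for the base composition and length of genes, described below, HES1 kept its calls, while NOTCH1 passed with no chemical and NOTCH3 not with BaP. JAG1 and DLL1 did not pass with any chemical in the main test, though DLL1 fell with CSC and NNK in the corrected fit. With limma-voom at an adjusted p under 0.05, 4 of 9 members passed for CSC, all higher, where 55.1% of all genes tested passed, 28.0% higher and 27.1% lower. For BaP, 4 rose and 1 fell, where 51.0% of all genes passed, 26.1% higher and 24.9% lower. For NNK, 5 rose, where 51.8% passed, 26.1% higher and 25.7% lower. About the same share of members as of all genes passed, so nothing is read from the counts alone. The 3 comparisons share the same DMSO libraries, and the doses of the chemicals are not matched.

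Among the ligands, JAG2 had a median of 100 CPM with DMSO (lowest 54.7, highest 127, n = 24), 96.9 with CSC (52.0 to 143, n = 23), 93.6 with BaP (68.3 to 187, n = 24) and 137 with NNK (58.8 to 179, n = 24). JAG2 rose with NNK (log2 fold change 0.38 ± 0.06 SE, adjusted p = 1.67e-08) and did not pass with CSC (-0.01 ± 0.06) or BaP (0.09 ± 0.06). In the GFP line, where the rise was largest, the NNK libraries held 155, 167 and 179 CPM and the DMSO libraries 89.3, 102 and 116. In the NRG1 line, where JAG2 did not rise, they held 58.8, 61.5 and 95.9 CPM with NNK and 72.9, 73.0 and 78.3 with DMSO. Within lines the log2 fold change with NNK ran from -0.06 to 0.72. It was higher than DMSO in 7 of 8 lines and lower in 1, and passed in 3. With the correction described below, JAG2 with NNK was -0.04 and did not pass. JAG1 differed from DMSO by 0.11 ± 0.06 on the log2 scale with CSC, -0.03 ± 0.06 with BaP and -0.07 ± 0.06 with NNK (adjusted p = 0.0872, 0.673 and 0.302). The value with CSC passed when genes with a mean count under 10 were left out (0.12, adjusted p = 0.0452), without the FAT1 line (0.14) and without the CDKN2A line (0.15). DLL1, with a median of 11 reads per library, differed by -0.14 ± 0.15, -0.00 ± 0.15 and -0.24 ± 0.16, none of which passed.

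Of the receptors, NOTCH3 had a median of 46.2 CPM with DMSO, 63.3 with CSC, 56.5 with BaP and 73.5 with NNK. The libraries of each treatment spread widely, since all 8 lines are pooled in these medians. Within lines it was higher than DMSO in 8 of 8 lines for each chemical. The log2 fold change was 0.74 ± 0.09 with CSC (fold 1.67, adjusted p = 1.49e-12), 0.43 ± 0.09 with BaP (adjusted p = 4.71e-05) and 0.59 ± 0.09 with NNK (adjusted p = 5.21e-08). In the NRF2 line the DMSO libraries held 83.3, 83.7 and 85.9 CPM against 139, 142 and 148 CPM with CSC. NOTCH1 was likewise higher in 8 of 8 lines for each chemical. Its log2 fold change was 0.33 ± 0.06 with CSC, 0.30 ± 0.06 with BaP and 0.48 ± 0.06 with NNK (adjusted p = 1.75e-06, 1.99e-05 and 2.74e-11). The exons of NOTCH1 and NOTCH3 have at least 60% of the bases G and C (GC content, described below). Over all lines, 95.6%, 96.5% and 96.5% of tested genes with that content were higher with CSC, BaP and NNK. The same direction in 8 of 8 lines is therefore not particular to these receptors. NOTCH2 was -0.00 ± 0.04 with CSC and did not pass, fell with BaP (-0.24 ± 0.04, adjusted p = 1.68e-08, lower in 8 of 8 lines) and rose with NNK (0.14 ± 0.04, adjusted p = 6.85e-04, higher in 7 of 8 lines).

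Among the target genes, HES1 encodes a transcriptional repressor that holds back differentiation genes. Its level with DMSO was 6.98 CPM in the lowest library, 16.0 at the median and 28.1 in the highest. With CSC the corresponding levels were 16.6, 32 and 46.4 CPM, with BaP 9.85, 29.6 and 49.1 CPM, and with NNK 12.3, 27.3 and 48.9 CPM. The log2 fold change was 0.93 ± 0.11 with CSC (fold 1.91, adjusted p = 2.30e-13), 0.84 ± 0.11 with BaP (fold 1.79, adjusted p = 8.80e-11) and 0.65 ± 0.11 with NNK (fold 1.57, adjusted p = 4.80e-07). HES1 was higher than DMSO in 8 of 8 lines for each chemical. In each of the 8 lines, the lowest CSC library lay above the highest DMSO library. This held for 1.93% of the genes tested. For BaP and for NNK the ranges lay apart in 5 of 8 lines, which 6.40% and 6.47% of genes reached.

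In the HcRed line the DMSO libraries held 15.5, 17.3 and 19.7 CPM of HES1 and the CSC libraries 34.0, 39.4 and 41.2 CPM. In the GFP line they held 6.98, 13.4 and 13.5 CPM with DMSO and 19.3, 30.5 and 31.1 CPM with CSC. In HcRed the replicates spread more widely with NNK than with the other treatments, at 12.3, 24.2 and 31.8 CPM, and overlapped DMSO. Tested within single lines, HES1 passed in 6 lines with CSC, in 2 with BaP and in 1 with NNK, where between 6.39% and 23.2%, 4.58% and 16.8%, and 4.37% and 16.8% of genes passed.

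HES4, a repressor of the same family with few reads, rose with CSC (0.58 ± 0.20, adjusted p = 0.0109) and BaP (0.69 ± 0.20, adjusted p = 0.00206) and was 0.12 ± 0.22 with NNK. The call with CSC was lost without the FAT1 line (0.47), without the PIK3CA line (0.52) and without replicate 3 (0.36), and the call with BaP without replicate 3 (0.56). HEY1 differed by 0.36 ± 0.31, 0.23 ± 0.31 and 0.11 ± 0.31, none of which passed. The fibroblast list, of which COL1A1 alone had 10 or more reads on average, moved with these comparisons too. It had a median of 17.0 CPM with DMSO, 34.1 with CSC, 27.3 with BaP and 32.1 with NNK, while the 5 ciliated markers, each with fewer than 10 reads on average, summed to medians of 15 CPM with DMSO, 8.14 with CSC, 8.85 with BaP and 6.82 with NNK, over overlapping ranges. The part of either list in the results was not tested.

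**Figure D1:**
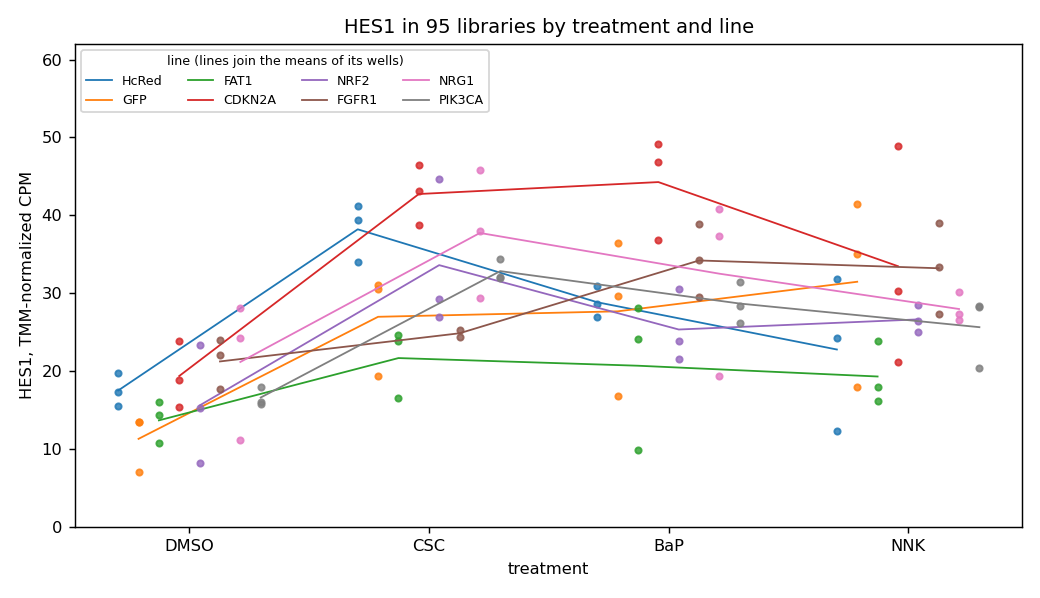
HES1 in each of the 95 libraries (points), in CPM after TMM scaling on a linear axis from 0, by treatment, with each line in its own colour and a line joining the means of its replicates. With CSC every line lies above its own DMSO libraries, while with BaP and NNK some replicates reach down into the DMSO range.

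Base composition moved with all 3 treatment comparisons. Genes with at least 60% GC in their exons had a median log2 fold change of 0.51 with CSC, 0.47 with BaP and 0.48 with NNK. Genes from 45% to 60% GC had medians of 0.14, 0.13 and 0.14, and genes under 45% GC of -0.21, -0.19 and -0.21, while the median of all genes tested was between 0.00 and 0.01. HES4 (73.8% GC), JAG2 (64.2%), NOTCH1 (63.2%) and NOTCH3 (62.4%) are in the group of highest GC, and DLL1 (59.6%), HES1 (52.3%), JAG1 (49.0%), NOTCH2 (46.6%) and HEY1 (45.2%) in the middle group. A fit corrected for the GC content and length of each gene's exons was therefore set beside the main one. In it 30.5%, 23.9% and 18% of genes passed for CSC, BaP and NNK.

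HES1 kept its direction and passed with the correction for each chemical (0.82, 0.69 and 0.58 on the log2 scale, limma-trend adjusted p = 1.42e-10, 4.36e-08 and 6.56e-06). NOTCH3 passed with CSC (0.46) and NNK (0.27) and not with BaP (0.22, adjusted p = 0.0757). The values of NOTCH1 were -0.02, -0.03 and 0.10 with the correction, none of which passed. JAG2 with NNK was -0.04, and JAG2 fell with CSC and BaP in this fit (-0.42 and -0.32). HES4 turned to -0.25 with CSC and -0.06 with BaP, neither of which passed, and to -0.43 with NNK, which did (adjusted p = 0.0325). DLL1 fell with CSC (-0.48) and NNK (-0.60) in this fit, and was -0.33 with BaP. NOTCH2 kept both calls, at -0.14 with BaP and 0.16 with NNK. In limma-trend without the correction, added after seeing the data, HES4 was 0.32 with CSC and did not pass, and 0.45 with BaP and passed.

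**Figure D2:**
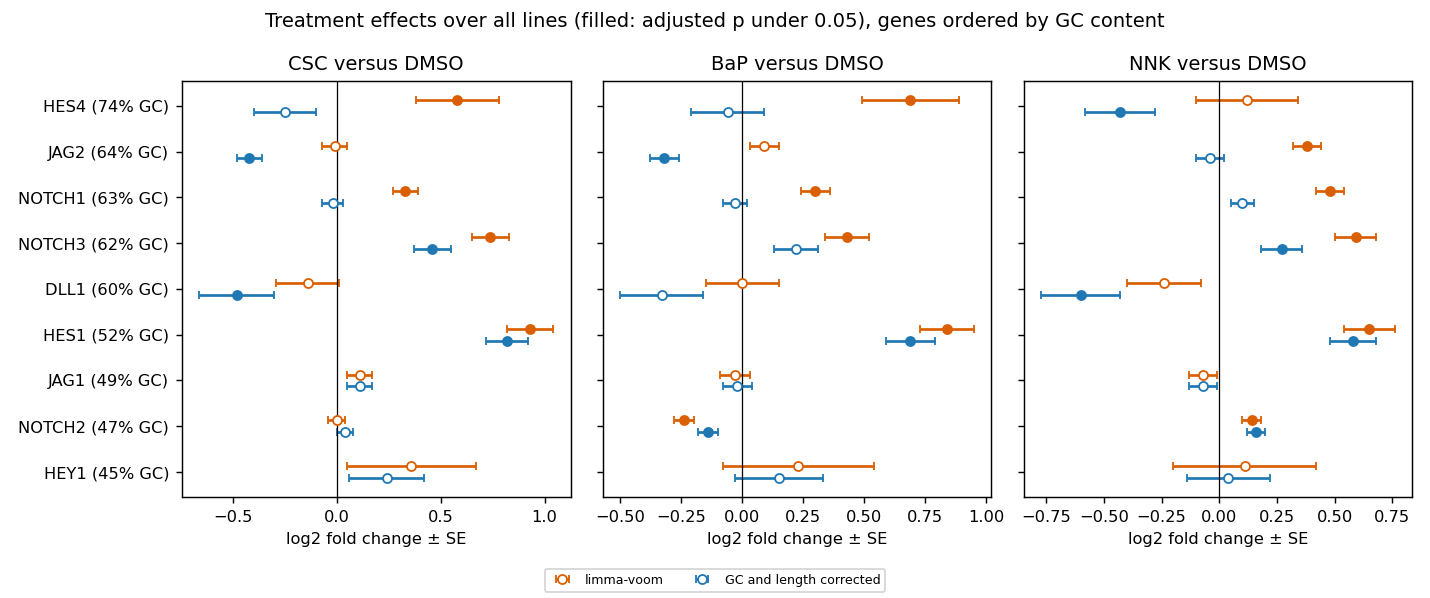
Log2 fold change against DMSO over all lines with its standard error, by chemical, from limma-voom (orange) and with the GC and length correction (blue). Members are ordered by GC content and filled points passed at an adjusted p under 0.05. HES1 stays near its value in both fits, and the members above 59% GC move to the left with the correction.

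The other genes of the pathway were taken as a list of 48, of which 43 passed the filter on low counts. With CSC 19 rose and 10 fell, with BaP 20 rose and 12 fell, and with NNK 17 rose and 8 fell, where 55.1%, 51.0% and 51.8% of all genes passed in either direction. The median log2 fold change of the list was 0.12, 0.15 and 0.15, and that of all genes 0.00, 0.01 and 0.00. With the GC correction the list had 11 higher and 4 lower for CSC, 9 and 5 for BaP, and 3 and 2 for NNK, where 30.5%, 23.9% and 18% of all genes passed. NRARP, a Notch target that feeds back on the pathway, rose with CSC (0.85 ± 0.14, 0.48 with the correction) and with BaP (0.51 ± 0.15, 0.20 and not passed with it). PSENEN, a gamma-secretase subunit, rose with CSC (0.75 ± 0.11, 0.73 with the correction). RFNG, a Fringe enzyme that adds sugars to the receptors, rose with CSC, BaP and NNK (0.84, 0.83 and 0.67), and these values were 0.29, 0.37 and 0.24 with the correction, of which the value with NNK no longer passed.

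MIB2, a ubiquitin ligase acting on ligands, rose with BaP (0.72 ± 0.08) and NNK (0.81 ± 0.08), at 0.26 and 0.34 with the correction, and DLK2, a non-canonical ligand, rose with NNK (0.50, 0.13 and not passed with it). Of the genes that fell, MAML2, a coactivator of the RBPJ complex, was lower with CSC and BaP (-0.43 and -0.57, or -0.27 and -0.38 with the correction). CIR1, a corepressor partner of RBPJ, fell with each chemical (-0.73, -0.44 and -0.39), and with the correction only the value with CSC passed (-0.38). ADAM10, which makes the first cut in the receptor, fell with BaP (-0.50 ± 0.04, -0.25 with the correction) and NNK (-0.26 ± 0.04, -0.02 and not passed). KAT2B with CSC (-0.41) and RBPJ with NNK (-0.23) did not pass with the correction (-0.19 and -0.03).

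Whether a chemical acted differently across the 8 lines was tested with a moderated F test in limma-voom. For each chemical 0 of 9 members passed, where 0.779% of all genes passed for CSC, 0.327% for BaP and 0.0695% for NNK. In edgeR and DESeq2 too, 0 passed the adjusted threshold. At an unadjusted p under 0.05 the counts were 2, 1 and 5 in limma-voom, 3, 2 and 4 in edgeR and 1, 2 and 2 in DESeq2. The share of all genes at that unadjusted threshold was not computed, so nothing is read from these counts. In limma-voom the lowest adjusted p was that of JAG1 with CSC (0.154), and in edgeR the lowest of any member with CSC was 0.150. The log2 fold change of JAG1 with CSC within lines ran from -0.18 in CDKN2A to 0.53 in PIK3CA.

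The second question was how each genotype differed from its control line over all treatments. NOTCH3 set the lines apart: its median was 121 CPM in GFP, 112 in FAT1 and 108 in NRF2, 66.6 in HcRed and 57.6 in FGFR1, and 34.0 in CDKN2A, 23.6 in PIK3CA and 19.7 in NRG1. Compared with their own controls, NOTCH3 fell in CDKN2A, NRG1 and PIK3CA and rose in NRF2. NOTCH1 rose in the FAT1 knockout, and JAG1 rose in the CDKN2A knockout and fell in NRF2 and PIK3CA. In these bulk samples fewer cells with a transcript and less of it per cell cannot be told apart.

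**Figure D3:**
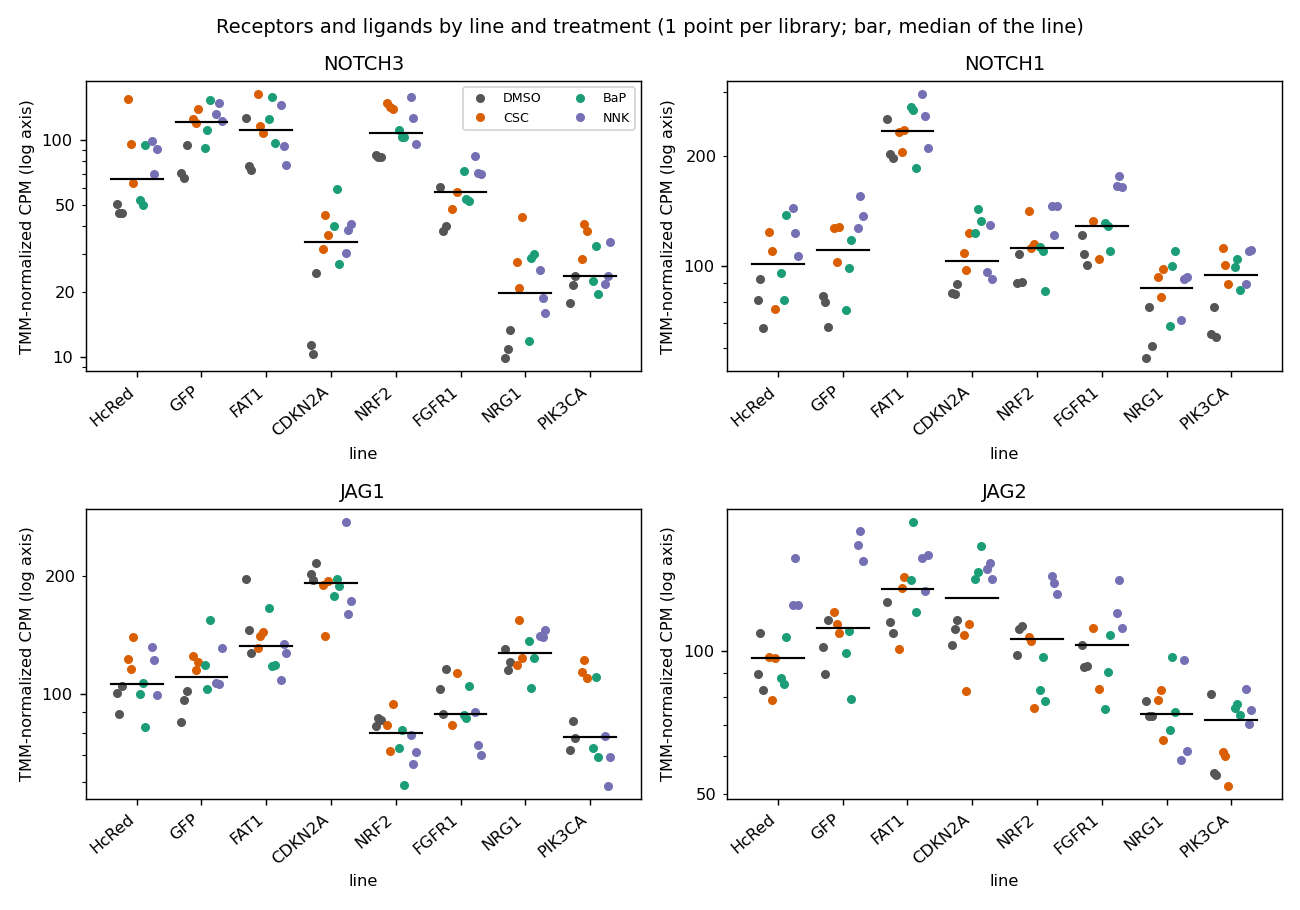
CPM of NOTCH3, NOTCH1, JAG1 and JAG2 in each library (points coloured by treatment) of the 8 lines on log axes, with a bar at the median of each line. NOTCH3 separates CDKN2A, NRG1 and PIK3CA from their controls, and NOTCH1 separates FAT1 from GFP without overlap.

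In FAT1 vs. GFP 4 of 9 members passed, 3 of them higher, where 48.8% of all genes did, 25.2% higher and 23.6% lower. FAT1 encodes a large cadherin. NOTCH1 lay between 186 and 295 CPM in the 12 FAT1 libraries (median 234) and between 68.2 and 156 CPM in the 12 GFP libraries (median 111). These ranges did not overlap, which was the case for 4.07% of genes. With DMSO the FAT1 libraries held 198, 203 and 252 CPM and the GFP libraries 68.2, 79.7 and 83.1 CPM. The log2 fold change was 1.19 ± 0.09 (fold 2.28, adjusted p = 1.33e-25), and it passed within each of the 4 treatments with values from 0.85 to 1.51.

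In FAT1 the ligand JAG1 rose as well (0.38 ± 0.08, adjusted p = 4.45e-05), and within treatments it passed with DMSO (0.71) and not with CSC, BaP or NNK (0.17 to 0.26). With DMSO FAT1 held 127, 146 and 196 CPM and GFP 85.1, 97.0 and 102 CPM. DLL1 fell (-0.64 ± 0.24, adjusted p = 0.0223), a call that was lost without replicate 1 (-0.71) and without replicate 2 (-0.57). JAG2 was 0.18 ± 0.08 (adjusted p = 0.0595). HES1 did not pass (-0.18 ± 0.16, adjusted p = 0.355). The call of HEY1 (1.09 ± 0.44, adjusted p = 0.0340), with medians of 2.40 and 0.663 CPM, rested on few reads. It was lost when 1 of 8 libraries was left out, namely FAT1 with BaP replicate 1 (0.96), with CSC replicate 2 (1.0) or with DMSO replicate 2 or 3 (0.93 or 0.99), or GFP with BaP replicate 1 (0.92), with CSC replicate 3 (0.93) or with DMSO replicate 1 or 3 (0.97 or 0.92). It was also lost in edgeR and DESeq2 (1.10 and 1.09).

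In CDKN2A vs. GFP 5 of 9 members passed, 4 of them higher, where 58.2% of genes did, 29.6% higher and 28.7% lower. CDKN2A encodes the cell cycle inhibitor p16 and the p53 activator ARF. NOTCH3 lay between 10.3 and 59.4 CPM (median 34.0) in CDKN2A and between 67.2 and 154 CPM (median 121) in GFP. The ranges lay apart, as for 8.41% of genes, and the log2 fold change was -1.79 ± 0.13 (adjusted p = 9.01e-25). With DMSO the CDKN2A libraries held 10.3, 11.4 and 24.4 CPM against 67.2, 70.6 and 95.4 CPM, and the difference passed within all 4 treatments (-2.41 to -1.45). Within CDKN2A, NOTCH3 was higher with each chemical than with DMSO, at 31.5, 36.5 and 45 CPM with CSC.

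The ligands JAG1 and DLL1 rose in CDKN2A. JAG1 had a median of 191 CPM (141 to 274) against 111 CPM in GFP (85.1 to 154), a log2 fold change of 0.78 ± 0.08 (adjusted p = 4.91e-16) that passed within all 4 treatments (0.58 to 1.09). DLL1 had a median of 25.5 CPM (11.1 to 39.0) against 14.4 CPM (7.67 to 24.4), a log2 fold change of 0.82 ± 0.22 (adjusted p = 7.62e-04). HES1 rose by 0.61 ± 0.14 (adjusted p = 1.20e-04), from a median of 24.5 to 37.7 CPM with overlapping ranges, and passed within DMSO (0.84) and CSC (0.66). NOTCH2 rose by 0.23 ± 0.05 (adjusted p = 4.19e-05). The calls of DLL1 and HES1 were lost without replicate 1 (0.66 and 0.43). Summed basal markers had medians of 6129 CPM in CDKN2A, 5224 CPM in FAT1 and 7069 CPM in GFP, with overlapping ranges for CDKN2A (4599 to 6965) and none for FAT1 (4068 to 6290) against GFP (6341 to 8347), and their part in the results was not tested.

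No gene was targeted in either control line, and 3 of 9 members passed between GFP and HcRed, where 43.5% of genes did, 20.5% higher and 22.9% lower in GFP. NOTCH3 was higher in GFP (0.63 ± 0.11, adjusted p = 5.90e-07), as was JAG2 (0.24 ± 0.08, adjusted p = 0.0148), and HES4 was lower (-0.87 ± 0.30, adjusted p = 0.0117). The call of JAG2 was lost without replicate 1 (0.22), and that of HES4 without replicate 2 (-0.79), without replicate 3 (-0.73) and with the GC correction (-0.29). The knockouts were therefore also set against HcRed, an alternative added after seeing the data. NOTCH1 in FAT1 (1.25), JAG1 in FAT1 (0.38), and NOTCH3 (-1.17), JAG1 (0.78), DLL1 (1.25), HES1 (0.34) and NOTCH2 (0.25) in CDKN2A kept their direction and passed. DLL1 (-0.21) and HEY1 (0.72) in FAT1 did not pass, while NOTCH3 in FAT1 passed against HcRed (0.63), where it was 0.00 ± 0.11 against GFP. HES1 (-0.45) and JAG2 (0.42) in FAT1 and JAG2 (0.33) and HES4 (-0.88) in CDKN2A also passed against HcRed and not against GFP.

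The 4 overexpression lines share the HcRed libraries as their control. NRG1, a ligand of the ERBB receptors, and PIK3CA, a catalytic subunit of phosphoinositide 3-kinase, each had lower NOTCH3. In NRG1 4 of 9 members passed, 1 of them higher, where 12.2% of genes did, 6.44% higher and 5.74% lower. In PIK3CA 3 of 9 passed, all lower, where 27.7% did, 14.3% higher and 13.5% lower. NOTCH3 lay between 9.88 and 44.1 CPM in NRG1 (median 19.7), between 17.8 and 41.0 CPM in PIK3CA (median 23.6) and between 46.1 and 155 CPM in HcRed (median 66.6). Both ranges lay below that of HcRed, where 0.250% of genes did not overlap between NRG1 and HcRed and 1.60% between PIK3CA and HcRed. The log2 fold change was -1.87 ± 0.17 in NRG1 (adjusted p = 8.73e-17) and -1.45 ± 0.15 in PIK3CA (adjusted p = 2.03e-15). Each passed within all 4 treatments, from -2.08 to -1.62 and from -1.83 to -1.20. With DMSO NRG1 held 9.88, 10.9 and 13.3 CPM, PIK3CA 17.8, 21.5 and 23.6 CPM, and HcRed 46.1, 46.2 and 50.8 CPM.

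JAG2 fell in both lines, by 0.43 ± 0.09 in NRG1 (adjusted p = 2.07e-04) and by 0.60 ± 0.09 in PIK3CA (adjusted p = 1.83e-08) on the log2 scale. Its medians were 73.6 CPM in NRG1, 71.7 CPM in PIK3CA and 96.7 CPM in HcRed. JAG1 went in opposite directions, with 0.27 ± 0.08 in NRG1 (adjusted p = 0.0169) and -0.38 ± 0.09 in PIK3CA (adjusted p = 1.70e-04). Leaving out any replicate number cost JAG1 in NRG1 its call (0.26 each time). NOTCH1 in NRG1 was -0.29 ± 0.09 (adjusted p = 0.0259), and this call was lost without replicate 1 (-0.09), without replicate 2 (-0.36) and without 1 of 5 single libraries, namely HcRed with CSC (-0.26) or NNK (-0.26) replicate 1, or NRG1 with BaP (-0.25), DMSO (-0.27) or NNK (-0.26) replicate 1. HES1 was 0.16 ± 0.14 in NRG1 and -0.05 ± 0.14 in PIK3CA and passed in neither. Summed basal markers were between 5403 and 6430 CPM in NRG1 and between 5264 and 6168 CPM in PIK3CA against 7609 to 10223 CPM in HcRed, and their part in these results was not tested.

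In NRF2, the factor that drives antioxidant genes, 2 of 9 members passed, where 21.7% of genes did, 10.2% higher and 11.5% lower. NOTCH3 rose by 0.67 ± 0.11 (adjusted p = 3.55e-07), with 83.3 to 159 CPM in NRF2 (median 108) overlapping 46.1 to 155 CPM in HcRed. The difference passed within 2 of 4 treatments (0.50 to 0.91). The control line GFP lay above HcRed by a similar 0.63 ± 0.11. With DMSO the NRF2 libraries held 83.3, 83.7 and 85.9 CPM and lay above the HcRed libraries at 46.1, 46.2 and 50.8 CPM. JAG1 fell by 0.50 ± 0.09 (adjusted p = 6.93e-06), from a median of 106 to 80.0 CPM, and passed with CSC (-0.56), BaP (-0.50) and NNK (-0.75) and not with DMSO (-0.22). In FGFR1, a growth factor receptor, NOTCH1 alone passed (0.36 ± 0.09, adjusted p = 0.00165), where 13.9% of genes did, 7.13% higher and 6.74% lower, and this call was lost without replicate 2 (0.31). NOTCH3 (-0.33 ± 0.13, adjusted p = 0.0621) and JAG1 (-0.23 ± 0.09, adjusted p = 0.0700) did not pass there.

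**Figure D4:**
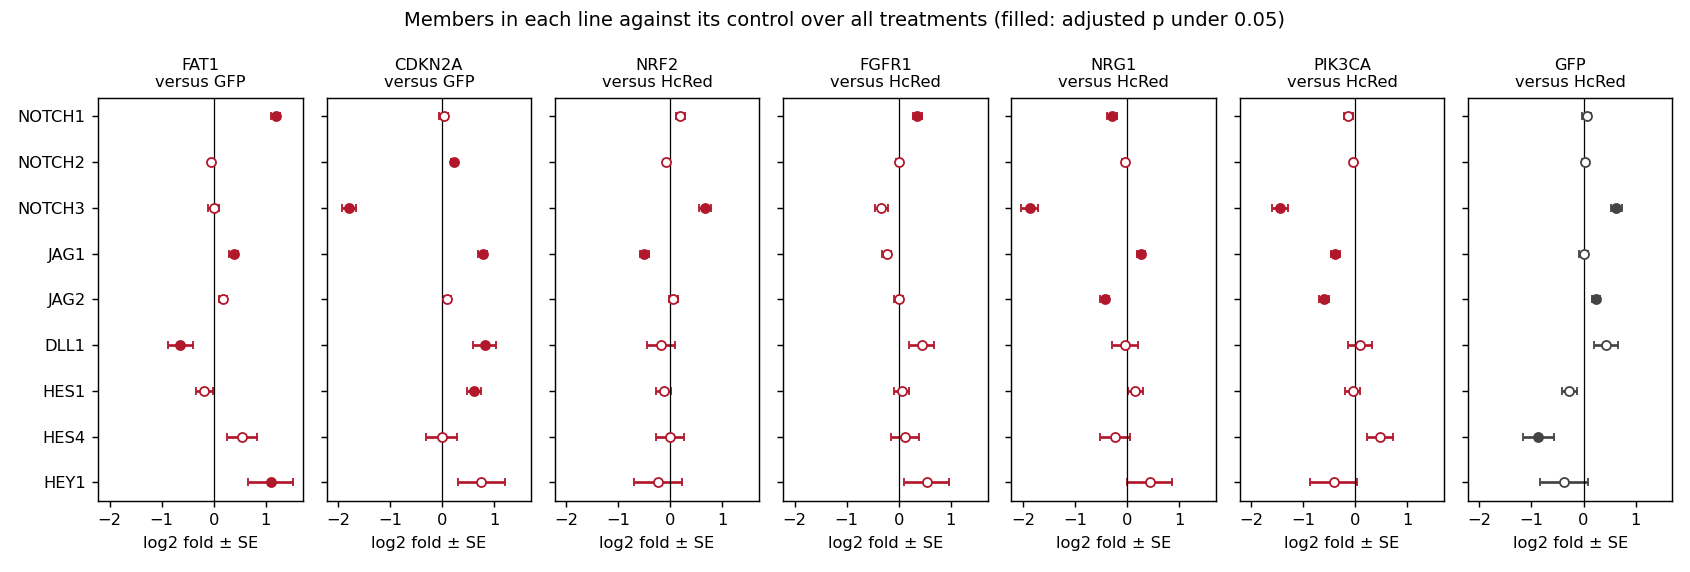
Log2 fold change with its standard error of the 9 members in each line against its control over all treatments, with the comparison of both control lines in grey, and filled points for an adjusted p under 0.05. NOTCH3 lies at -1.79 in CDKN2A, -1.87 in NRG1 and -1.45 in PIK3CA, and NOTCH1 at 1.19 in FAT1.

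With the GC and length correction the largest line differences stayed close to these values. NOTCH1 in FAT1 was 0.97, NOTCH3 in CDKN2A -1.98, in NRG1 -1.71, in PIK3CA -1.34 and in NRF2 0.59, and JAG1 in CDKN2A 0.77, and all passed. Others moved: HEY1 in FAT1 (0.48) and HES4 in GFP vs. HcRed (-0.29) lost their calls, JAG2 in FAT1 was -0.02, and HES4 in CDKN2A (-0.48) and NOTCH1 (0.19) and DLL1 (0.61) in GFP vs. HcRed passed in the corrected fit and not in the main one. The corrected fit also replaces voom by limma-trend. In limma-trend without the correction, added after seeing the data, HEY1 in FAT1 was 0.42 and did not pass either. HES4 in GFP vs. HcRed was -0.51 there and passed. The share of all genes that passed in the corrected fit was 49.5% for FAT1, 57.2% for CDKN2A, 19.8% for NRF2, 13.4% for FGFR1, 11.3% for NRG1, 25% for PIK3CA and 43.1% for GFP vs. HcRed. The median log2 fold change of genes with at least 60% GC was 0.24 in FAT1 and 0.23 in CDKN2A against GFP and between -0.03 and 0.10 in the overexpression lines against HcRed.

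In the pathway list of 43 genes, 10 were higher and 9 lower in FAT1, 14 and 11 in CDKN2A, 5 and 5 in NRF2, 2 and 6 in FGFR1, 1 and 5 in NRG1 and 6 and 10 in PIK3CA, where 48.8%, 58.2%, 21.7%, 13.9%, 12.2% and 27.7% of all genes passed, with list medians between -0.10 and 0.06 where those of all genes were between -0.01 and 0.03. Between GFP and HcRed 7 were higher and 10 lower, where 43.5% of all genes passed. RBPJ, the DNA-binding partner of the receptors, fell in FAT1 against GFP (-0.95 ± 0.07) and against HcRed (-0.43 ± 0.08), while GFP stood above HcRed (0.52 ± 0.07). DTX4, a Deltex ubiquitin ligase, was higher in FAT1 than in GFP (1.48 ± 0.13) but not than in HcRed (0.02 ± 0.10), as GFP itself lay below HcRed (-1.46 ± 0.15). NRARP rose in FAT1 (0.82 ± 0.22), FGFR1 (0.70 ± 0.21) and PIK3CA (0.88 ± 0.20). RFNG was also higher in FAT1 (0.53), and DLK2 (-0.58) and CIR1 (-0.49) were lower. With the GC correction RFNG (0.23) and CIR1 (-0.30) no longer passed, and DLK2 did not pass against HcRed (-0.27).

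HES2, a further HES repressor, fell in CDKN2A (-1.37 ± 0.17), PIK3CA (-1.26 ± 0.18), FGFR1 (-1.03 ± 0.18) and NRG1 (-0.57 ± 0.16). In CDKN2A the gamma-secretase subunit PSEN2 (1.0 ± 0.14), RFNG (0.85) and MAML2 (0.84) rose, and DLK2 (-0.73) and APH1B (-0.50) fell, of which APH1B did not pass with the GC correction (-0.39, adjusted p = 0.114). In NRF2 POFUT1, which adds fucose to the receptors, rose (0.43 ± 0.05), as did MAML1 (0.28) and RBPJ (0.20), and PSEN2 (-0.49), ADAM17 (-0.29) and MIB1 (-0.19) fell. In FGFR1 DTX3L rose (0.32), and NUMB (-0.28) and ADAM17 (-0.21) fell. In NRG1 KAT2B (-0.47) and the Fringe enzyme LFNG (-0.37) fell. In PIK3CA POFUT1 (0.53) and the ubiquitin ligase ITCH (0.28) rose, and DLK2 (-0.83) and LFNG (-0.82) fell. Between the control lines ADAM10 (0.31) and MIB2 (0.31) were higher in GFP, and POFUT1 (-0.64) and ITCH (-0.57) were lower.

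Over the means of the 32 combinations, which share libraries, depth and base composition among genes, NOTCH1 and JAG2 moved together (Pearson's r = 0.67, Spearman's rho = 0.72), as did NOTCH1 and NOTCH3 (0.62 and 0.65) and NOTCH3 and JAG2 (0.58 and 0.57). All other pairs of members had a lower r. HES4, with a mean of only 4.46 reads per library, went against NOTCH2 (r = -0.52) and JAG1 (-0.48). With the receptors and ligands, HES1 had r between -0.08 (NOTCH3) and 0.17 (JAG1 and DLL1). These correlations are descriptions, with no test. Of the genes with a mean of at least 50 reads, those most like NOTCH1 were SEMA3F (r = 0.89), CHMP1B (0.87) and KIAA1671 (0.86), and genes like NOTCH3 included FXYD3 (0.87) and KIAA1522 (0.84). JAG1 was most like CD55 (0.88), PPP1R15B (0.87) and C1orf43 (0.86), and JAG2 most like KREMEN1 (0.86), CDC42BPG (0.79) and TOM1L2 (0.77). NOTCH2 was most like LAMC1 (0.84), APP (0.80) and COL4A1 (0.73), DLL1 most like ZNF639 (0.75), VPS8 (0.74) and SELENOT (0.74), and HES1 most like GPC1 (0.86), CSNK1D (0.85) and CHPF (0.82).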

How the data were processed

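RNA of 95 AALE samples was profiled by SFL. Per the submitters' processing notes, the authors trimmed single-end reads with cutadapt 1.12, checked them with FastQC 0.11.5, aligned them to hg19 with STAR 2.5.2b and counted reads per gene with featureCounts. The deposited values are whole-number counts per gene, without normalization, and whether strand was used is not given in the sources used here. Groups and replicate numbers come from the sample labels.

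Counts were scaled by TMM in edgeR 4.0.16 under R 4.3.3 and tested by limma-voom (limma 3.58.1, moderated and 2-sided), in a single fit of all 95 samples with line and treatment as additive terms. Genes with a mean count above 1 were tested (14384 genes), and p-values were adjusted by Benjamini-Hochberg over all of them, with a threshold of 0.05. Effects within 1 line or treatment and their differences between lines came from a fit of the 32 combinations. DESeq2 1.42.0 and the quasi-likelihood test of edgeR were tried as alternatives, as were other filters and scaling, the replicate number as a block, a loess correction for the GC content and length of exons (span 0.3, limma-trend, 13487 genes with a GENCODE model on GRCh37), DMSO alone, and leaving out replicates, lines or libraries. Printed CPM are scaled by TMM. RPKM, computed here, divide them by exon length. Intervals and limits from reads cover counting error only. The fits were also run on simulated counts in which a small share of genes changed and GC content had no effect. Those runs therefore could not test the GC correction.

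The members, lists and motifs were chosen with earlier results of these data known. Members were always named, with up to 3 rising and 3 falling pathway genes per comparison (past the threshold, mean count of at least 10, largest change) and, for each member with a mean count of at least 10, the 3 genes of highest correlation. Some genes that this rule names are not reported here. Same-numbered replicates were not treated as pairs in the main fit. Over 52 pairs of combinations the mean correlation of same-numbered deviations lay between -0.0336 and 0.116. Between a chemical and DMSO in the same line it lay between -0.023 and 0.116 and was mostly positive, so weak sharing within a line is not excluded.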

Additional observations from a re-analysis of the deposited data

How the results depend on the processing

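Over all alternatives, 217 counts of members passing stayed within 1.5 times the reported count and 15 did not. Of the values of single members, 1965 kept their side of the threshold, and 51 lost and 29 gained the call. A further 14 turned sign and passed in the main fit or in the alternative. Values that passed in neither were counted as kept even where the sign differed, as for HES1 in FAT1 with DMSO alone (0.33 against -0.18). With the GC and length correction, with or without the replicate block, 3 members passed for BaP (5 without the correction). The values that turned sign and passed in the main or the corrected fit were NOTCH1 with CSC (-0.02) and BaP (-0.03), HES4 with CSC (-0.25), BaP (-0.06) and NNK (-0.43), and JAG2 with BaP (-0.32) and NNK (-0.04). Leaving out a replicate number or 1 library gave 2 to 5 members in FAT1, 3 to 5 in CDKN2A, 0 to 2 in FGFR1 and 2 to 4 in NRG1. Calls over all genes fell as well in FGFR1, to 1295, 1150 and 1180 without replicate 1, 2 and 3 (1996 with all). In NRG1 they fell to 901 and 1028 without replicate 1 and 2 (1752 with all). In FAT1 and CDKN2A the all-gene counts of these refits stayed within 1.5 times the main count. With DMSO alone 1 member passed in NRF2, 0 in FGFR1, 1 in NRG1 and 1 in GFP vs. HcRed. edgeR gave 2 in FGFR1, and summed counts per combination gave 2 in NRG1, where the all-gene counts stayed within 1.5 times the main count. The fits of DMSO alone, left-out replicates and summed counts had fewer samples, and the causes of these changes were not tested.

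Over all genes, 12546 passed for BaP and 12582 for NNK without a filter (7337 and 7455 with it). With the GC correction 4110, 3220 and 2432 passed for CSC, BaP and NNK, and 4097, 3239 and 2463 with the block too (7922, 7337 and 7455 without the correction). With DMSO alone 3752 passed for FAT1, 5408 for CDKN2A, 1005 for NRF2, 265 for FGFR1, 287 for NRG1, 1228 for PIK3CA and 2518 for GFP vs. HcRed (7015, 8376, 3120, 1996, 1752, 3990 and 6253 over all treatments). Effects differing between lines numbered 112, 47 and 10, 41 for CSC in DESeq2, 25 for NNK in edgeR, and 29 and 19 for CSC and BaP with the GC correction, which is fitted by limma-trend and not voom. limma-trend without the correction, an alternative added after seeing the data, gave 43 and 26. The replicate block alone left the counts of members passing as they were in every comparison. HES4 and HEY1 are limited by depth, with means of 4.46 and 1.76 reads.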
